A study of Mus musculus with 3 samples.

Results

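The 8 genes described here encode enzymes that turn lanosterol, the first sterol of the cholesterol pathway, into cholesterol: Cyp51, Tm7sf2, Msmo1, Nsdhl, Hsd17b7, Ebp, Sc5d and Dhcr7. They were chosen by name, and all 8 were found among the 41799 genes listed for each library and among the 13153 genes tested, whose mean over the libraries reached 1 CPM (a count scaled to a common library size). RNA from the liver of C57BL/6 males, 14 weeks old, was sequenced as 3 libraries, 1 for each group. One group ate regular chow, another a high-fat diet (HFD), and the third the HFD while it received 40 mg/kg of DfCS-Ib in water by gavage. DfCS-Ib is a code name for what the series calls a sulfated oligosaccharide. The labels give 8 mice per group with free access to food, but not how many of them gave the RNA of a library, the fat content of the diet or its duration. Because each group had 1 library, no difference has a replicate check and no p-value was computed. Every comparison describes these libraries, and the ranges in parentheses are 95% exact (Clopper-Pearson or Poisson) intervals for counting error only.

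Cholesterol synthesis runs in the endoplasmic reticulum, and the steps after lanosterol strip methyl groups from the sterol and shift, add and reduce double bonds. Most genes of the pathway are known targets of SREBP, a membrane-bound transcription factor that is released when sterols are scarce and that works at promoters together with NF-Y and Sp proteins. In the liver the pathway supplies cholesterol for membranes, lipoproteins and bile acids.

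All 8 genes had a higher CPM with the HFD than with chow, and all 8 had a lower one with DfCS-Ib than with the HFD alone. Over all genes tested the median log2 ratios of these comparisons were 0.02 and -0.01, so direction alone does not set a gene apart. Hsd17b7 lay at percentiles 77.6 and 36.3 of all genes tested. Cyp51, Msmo1, Nsdhl, Sc5d and Dhcr7 were at least 2-fold above both other libraries in the HFD library. For these 5 genes the ratio of HFD to chow went from 3.65 for Dhcr7 to 13.3 for Msmo1. Hsd17b7, which acts in the same demethylation as Msmo1 and Nsdhl, had a ratio of 1.26, the lowest of the 8, and Ebp and Tm7sf2 lay between at 1.66 and 1.80. Of all genes tested, 1.47% were at least 2-fold above both other libraries in the HFD library, against 5 of these 8.

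Promoter sequences of 4 members are shown because these 4 had the 2 highest and the 2 lowest ratios of HFD to chow. Each is the 250 bases before the RefSeq start, read 5′ to 3′ on the strand of the gene from RefSeq (GRCm38.p6), with every CCAAT box, on either strand, in capitals. CCAAT is the box that NF-Y binds.
Msmo1: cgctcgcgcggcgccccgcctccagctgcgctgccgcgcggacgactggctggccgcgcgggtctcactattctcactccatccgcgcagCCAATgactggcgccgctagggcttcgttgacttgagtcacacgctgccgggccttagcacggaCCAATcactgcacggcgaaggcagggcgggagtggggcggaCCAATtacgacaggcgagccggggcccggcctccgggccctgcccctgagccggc
Nsdhl: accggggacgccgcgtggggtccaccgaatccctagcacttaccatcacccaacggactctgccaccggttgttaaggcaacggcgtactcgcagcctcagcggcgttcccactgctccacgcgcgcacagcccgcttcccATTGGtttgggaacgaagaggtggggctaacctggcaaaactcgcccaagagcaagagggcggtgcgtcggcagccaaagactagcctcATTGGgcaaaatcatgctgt
Hsd17b7: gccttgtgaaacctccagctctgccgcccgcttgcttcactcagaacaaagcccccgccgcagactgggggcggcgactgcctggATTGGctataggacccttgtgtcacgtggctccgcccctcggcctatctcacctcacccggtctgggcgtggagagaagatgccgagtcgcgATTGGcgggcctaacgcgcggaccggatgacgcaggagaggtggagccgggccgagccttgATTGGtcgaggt
Ebp: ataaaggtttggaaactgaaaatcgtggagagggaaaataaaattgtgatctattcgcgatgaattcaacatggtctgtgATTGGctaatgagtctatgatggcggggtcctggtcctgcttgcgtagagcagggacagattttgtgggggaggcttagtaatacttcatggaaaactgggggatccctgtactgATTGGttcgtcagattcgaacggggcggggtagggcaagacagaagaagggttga
The Msmo1 sequence is chr8:64733579-64733828 on the minus strand, the Nsdhl sequence chrX:72918271-72918520 on the plus strand, the Hsd17b7 sequence chr1:169969206-169969455 on the minus strand, and the Ebp sequence chrX:8193513-8193762 on the minus strand. Msmo1 and Hsd17b7 each held 3 CCAAT boxes here, and Nsdhl and Ebp 2 each. With the 50 bases after the start included, Nsdhl held 4, Msmo1 and Hsd17b7 3 each, and Ebp 2.

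The 4 fixed motifs were searched on both strands in windows from 250 bases before to 50 after each RefSeq start, and the table held 10 such windows for the 8 genes, 3 of them for Dhcr7. CCAAT occurred in 8 of the 10 windows, against 37.4% of all 32851 windows, and in at least 1 window of all 8 genes, against 41.1% of 27025 genes. In Dhcr7 it occurred only in the window of the start farthest downstream. The first base of a box lay between 170 bases before the start, in Ebp, and 34 after it, in Nsdhl. The boxes of Nsdhl began 109 and 20 bases before the start and 8 and 34 after it. The GC box GGGCGG, bound by Sp proteins, occurred in 9 of 10 windows against 35.7% of all windows. The E-box CACGTG occurred in 3 of 10, those of Hsd17b7, Sc5d and Dhcr7, against 7.15%. The sterol regulatory element, searched as TCACNCCAC, occurred in 0 of 10 windows and in 1.24% of all windows. That says only that these letters were not in these windows. None of the 38 matches overlapped a match of another motif. The shares over all windows are not adjusted for base composition and not limited to the genes tested in these libraries. The Dhcr7 windows from 143822917 to 143823216 and from 143823149 to 143823448 overlap, so the 10 windows are not all separate. Among 7 of the 11 genes from the mevalonate steps to lanosterol that had a window, CCAAT occurred in 6.

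The libraries held 10969699 to 12279537 counts. All 10 hepatocyte markers had counts in each library and summed to between 125785 and 161168 CPM, while Prss1, Cpa1 and Amy2a5 of exocrine pancreas were at 0 and the 3 markers each of adipocytes and skeletal muscle were at or near 0. Of the 10 hepatocyte markers, 7 were lower with the HFD than with chow, and the median log2 ratio of the 10 was -0.48, beside 0.02 over all genes. With DfCS-Ib 9 of the 10 were higher than with the HFD alone, and the median was 0.37, beside -0.01. The 8 macrophage and Kupffer cell markers summed to 319, 389 and 688 CPM in chow, HFD and DfCS-Ib in turn. All 8 were higher with DfCS-Ib than with the HFD alone, at a median log2 ratio of 0.84. Markers of stellate cells, endothelium, cholangiocytes and erythroid cells summed to between 40.8 and 377 CPM. The part of such differences in the values of the 8 genes was not tested. In bulk tissue, fewer cells of a type and less RNA per cell cannot be told apart.

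Levels are given as counts and as RPKM, the authors' count scaled by gene length and library total, in the order chow, HFD, DfCS-Ib. Cyp51 (chromosome 5, 4080674 to 4104697 of mm10) encodes the cytochrome P450 that starts the removal of a methyl group from lanosterol. It had 377, 3108 and 514 counts, or 7.85, 58.1 and 10.8 RPKM. The HFD library was 6.89-fold (6.19 to 7.69) above chow, and DfCS-Ib was 5.04-fold (4.59 to 5.55) below the HFD library. Among all genes tested, 24 had a larger log2 ratio of HFD to chow.

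Tm7sf2 (chromosome 19, 6062821 to 6067850) encodes a reductase of the double bond that this demethylation leaves behind. It had 851, 1831 and 705 counts, or 52.2, 101 and 43.5 RPKM. Its HFD level was 1.80-fold (1.66 to 1.95) above chow, short of 2-fold, and the DfCS-Ib level was 2.17-fold (1.98 to 2.37) below the HFD level. DfCS-Ib lay below chow as well, at a ratio of 0.831 (0.751 to 0.919). The gene shares 9 bases with its neighbour Vps51 on the same strand, which had 189, 238 and 152 counts, and reads over these bases may belong to either.

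A pair of methyl groups on the first ring of the sterol is removed by Msmo1, Nsdhl and Hsd17b7 acting in turn, and these 3 enzymes held both the highest and the lowest ratio of the 8. Msmo1 (chromosome 8, 64718145 to 64733578), the oxidase of the set, had 158, 2508 and 355 counts, or 7.85, 112 and 17.7 RPKM. The HFD library was 13.3-fold (11.3 to 15.7) above chow, and DfCS-Ib was 5.89-fold (5.27 to 6.60) below the HFD library. Msmo1 had the seventh highest log2 ratio of HFD to chow among the 13153 genes.

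Nsdhl (chromosome X, 72918521 to 72958528), the decarboxylating dehydrogenase, had the lowest level of the 8 in chow, with 73, 1062 and 101 counts, or 2.98, 39.0 and 4.15 RPKM. It was 12.2-fold (9.59 to 15.6) higher in HFD than in chow. Its DfCS-Ib level was 8.77-fold (7.14 to 10.9) below the HFD level, the largest such difference of the 8. Only 7 of the 13153 genes had a lower log2 ratio of DfCS-Ib to the HFD library.

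Hsd17b7 (chromosome 1, 169949535 to 169969238) encodes the ketoreductase that ends each round, and it is also known for reducing estrone. It had 816, 1232 and 937 counts, or 13.3, 18.0 and 15.3 RPKM. The ratio of HFD to chow was 1.26 (1.16 to 1.38), at percentile 77.6 of all genes tested, and that of DfCS-Ib to the HFD library was 0.912 (0.837 to 0.994). The interval of neither ratio reached the interval of any other member. Its RPKM rests on a stated length of 5581 bases, whereas the 2 coding transcripts of GENCODE M21 are 4612 and 1446 bases long, so its level relative to the other genes is uncertain. The stated length also exceeded the longest such transcript for Cyp51 (4353 against 3931 bases) and Dhcr7 (3135 against 2815). By smaller margins it did so for Sc5d (4964 against 4787) and Nsdhl (2218 against 2168), and it was shorter for Tm7sf2, Msmo1 and Ebp. The ratios between libraries do not use the length.

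Ebp (chromosome X, 8185331 to 8193512) encodes the sterol isomerase that moves the ring double bond. It had 1286, 2547 and 1232 counts, or 67.0, 119 and 64.5 RPKM, the highest level of the 8 in chow and with DfCS-Ib. The HFD level was 1.66-fold (1.55 to 1.77) above chow and the DfCS-Ib level 1.72-fold (1.61 to 1.85) below the HFD level, both short of 2-fold. DfCS-Ib and chow did not differ beyond counting error, at a ratio of 0.961 (0.888 to 1.04).

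Sc5d (chromosome 9, 42251592 to 42264300) encodes the desaturase that adds a double bond to the product of Ebp. With 1796, 8805 and 2360 counts it took more reads than any other member, and its RPKM of 32.8, 144 and 43.3 was the highest of the 8 in the HFD library. It was 4.10-fold (3.90 to 4.32) above chow in the HFD library and 3.11-fold (2.97 to 3.26) lower with DfCS-Ib than in the HFD library. Dhcr7 (chromosome 7, 143823167 to 143848410), the reductase that turns 7-dehydrocholesterol into cholesterol, had 223, 972 and 206 counts, or 6.45, 25.2 and 5.99 RPKM. The HFD library was 3.65-fold (3.15 to 4.24) above chow and DfCS-Ib 3.93-fold (3.38 to 4.60) below the HFD library. For Dhcr7 the chow and DfCS-Ib libraries did not differ beyond counting error, at a ratio of 0.927 (0.763 to 1.13).

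**Figure D1:**
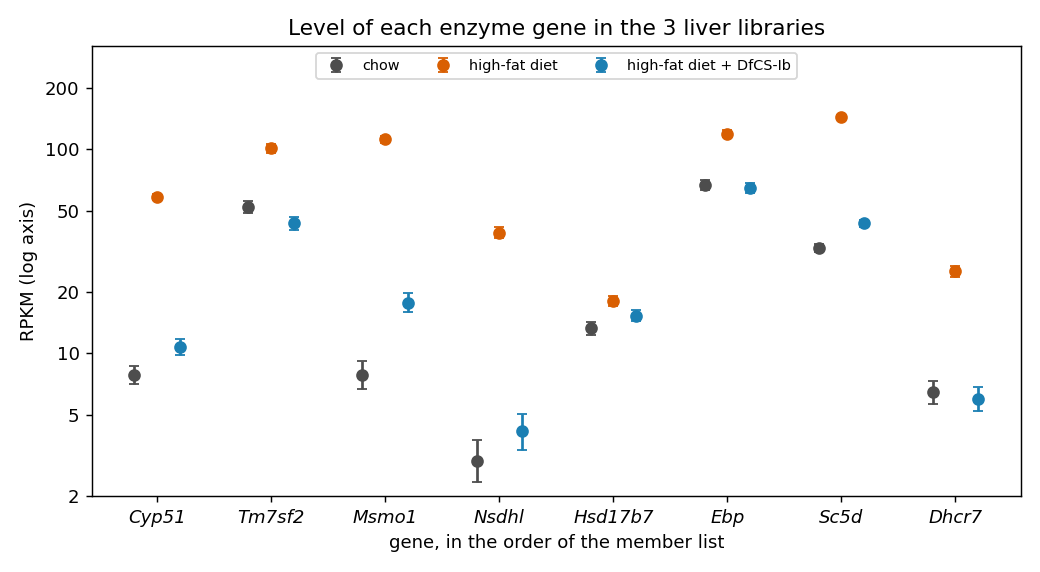
RPKM on a log axis for the 8 genes in pathway order, with 1 point per library and bars for the 95% exact Poisson interval, which covers counting error only. The HFD point is the highest for all 8 genes, from 18.0 for Hsd17b7 to 144 for Sc5d, and the DfCS-Ib and chow points lie at least 2-fold apart for Msmo1 alone, at 17.7 and 7.85.

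HFD was first set against chow, which addressed the diet. A level at least 2-fold higher with the HFD was found for 5 of the 8 genes, against 3.47% of all genes tested, and one at least 2-fold lower for 0, against 2.27%. The count uses the log2 ratio of CPM plus 1. At 1.5-fold 7 members were higher, against 10.4% of all genes, and at 3-fold 5, against 1.09%. The median of the 8 log2 ratios was 1.92, beside 0.02 over all genes, and single members went from 0.33 for Hsd17b7 to 3.64 for Msmo1. Steep and shallow genes were interspersed along the pathway: Cyp51, Msmo1 and Nsdhl were above 6-fold, Sc5d and Dhcr7 near 4-fold, and Tm7sf2, Hsd17b7 and Ebp below 2-fold. The intervals of Msmo1 and Nsdhl overlapped, as did those of Sc5d and Dhcr7 and those of Tm7sf2 and Ebp.

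DfCS-Ib and the HFD library were compared for the treatment on a common diet. At least 2-fold lower with DfCS-Ib were 6 of the 8 genes, against 2.02% of all genes tested, and 0 were at least 2-fold higher, against 2.46%. The sixth gene beside the 5 named above was Tm7sf2. At 1.5-fold 7 members were lower, against 7.16% of all genes, and at 3-fold 5, against 0.616%. The median log2 ratio was -1.78 for the 8 and -0.01 over all genes, with members from -3.00 for Nsdhl to -0.13 for Hsd17b7. This comparison and the one before it share the HFD library, so a high or low count there would move both.

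DfCS-Ib was also set against chow, a comparison that leaves the HFD library out. Only Msmo1 was at least 2-fold higher, at 2.25-fold (1.86 to 2.74), where 1.62% of all genes tested were, and 0 of the 8 were at least 2-fold lower, where 0.433% were. The log2 ratio of Msmo1 was 1.12, and 0.95 with a pseudocount of 5 CPM, short of 2-fold. At 3-fold 0 of the 8 were higher, where 0.365% of all genes were. Cyp51 at 1.37-fold (1.20 to 1.57), Nsdhl at 1.39-fold (1.02 to 1.90), Sc5d at 1.32-fold (1.24 to 1.40) and Hsd17b7 at 1.15-fold (1.05 to 1.27) were above chow beyond counting error. Tm7sf2 was below chow, and the intervals of Ebp and Dhcr7 included 1. The median log2 ratio of the 8 was 0.30, beside 0.00 over all genes. Put as a share of the difference in CPM between the HFD and chow libraries, 10.2% was left with DfCS-Ib for Msmo1, 10.3% for Sc5d, 6.235% for Cyp51 and 3.47% for Nsdhl. The share was negative, with the DfCS-Ib level below chow, for Dhcr7 at -2.78%, Ebp at -5.96% and Tm7sf2 at -21.15%. For Hsd17b7, where that difference was small, 57.8% was left.

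**Figure D2:**
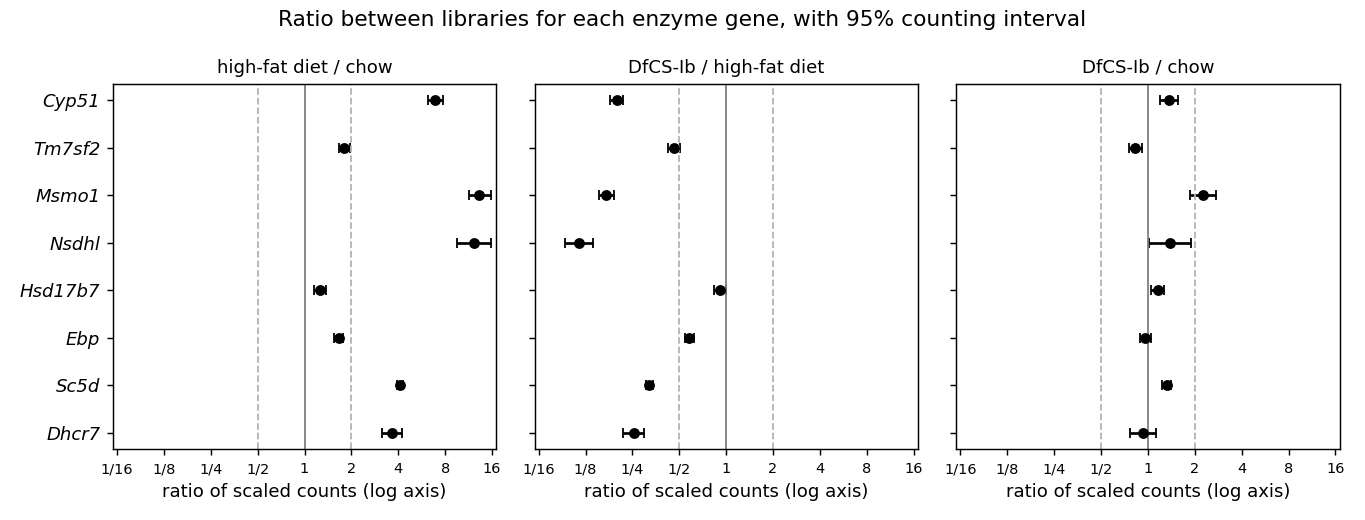
Ratio of scaled counts between pairs of libraries on a log axis, with 1 point per gene, bars for the 95% exact interval of counting error, a solid line at equal levels and dashed lines at 2-fold. In the left panel Msmo1 and Nsdhl lie above 12-fold and Hsd17b7 at 1.26, in the middle panel Nsdhl lies farthest below equality, and in the right panel only Msmo1 lies beyond 2-fold.

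The levels of the 8 genes were more alike in the HFD library, by RPKM, which rests on the stated gene lengths. The highest RPKM was 22.4 times the lowest in chow, 8.04 times in the HFD library and 15.5 times with DfCS-Ib. In chow the order was Ebp, Tm7sf2, Sc5d, Hsd17b7, Msmo1, Cyp51, Dhcr7 and Nsdhl, and the counting intervals of neighbours overlapped for Msmo1 with Cyp51 and for Cyp51 with Dhcr7. In the HFD library the order was Sc5d, Ebp, Msmo1, Tm7sf2, Cyp51, Nsdhl, Dhcr7 and Hsd17b7, with an overlap for Ebp and Msmo1. With DfCS-Ib it was Ebp, Tm7sf2, Sc5d, Msmo1, Hsd17b7, Cyp51, Dhcr7 and Nsdhl, with overlaps for Tm7sf2 and Sc5d and for Msmo1 and Hsd17b7.

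Shares of the summed RPKM do not depend on how libraries are scaled to each other, but they do rest on the stated gene lengths. The sum of the 8 was 190, 617 and 205 RPKM. Ebp and Tm7sf2 made up 35.2% and 27.4% of the sum in chow, 19.3% and 16.3% in the HFD library, and 31.4% and 21.2% with DfCS-Ib. Msmo1 went the other way, with 4.13%, 18.2% and 8.64%, and Nsdhl had 1.57%, 6.32% and 2.02%. Cyp51 had 4.13%, 9.43% and 5.24%.

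**Figure D3:**
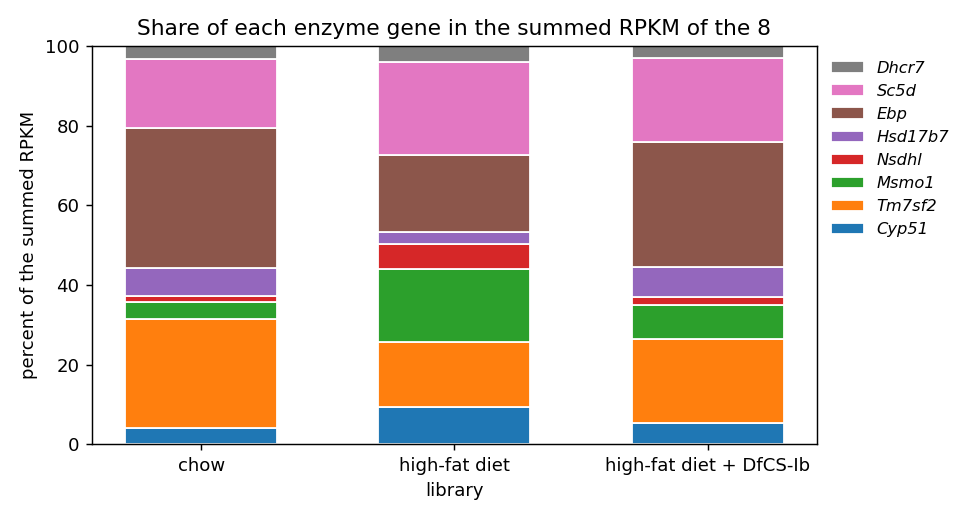
Percent of the summed RPKM of the 8 genes taken by each gene, as 1 stacked bar per library starting at 0. Msmo1 takes 18.2% of the HFD bar and 4.13% of the chow bar, while Ebp takes 19.3% and 35.2%.

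Genes with a lower level in chow had larger ratios, with exceptions such as Hsd17b7, which had a middling level and the lowest ratio. Across the 8 genes, Pearson's r between log2 RPKM in chow and the log2 ratio of HFD to chow was -0.70 and Spearman's rho -0.60. Both quantities use the chow count, and the level also rests on the stated gene length. With the ratio of DfCS-Ib to the HFD library, which does not use the chow count, r was 0.70 and rho 0.76. Both ratios use the HFD count, and the chow and DfCS-Ib levels were at least 2-fold apart for Msmo1 alone. The second correlation is therefore no separate check on the first. These values are across 8 genes of the same 3 libraries, which are not independent replicates, and are given as a description.

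**Figure D4:**
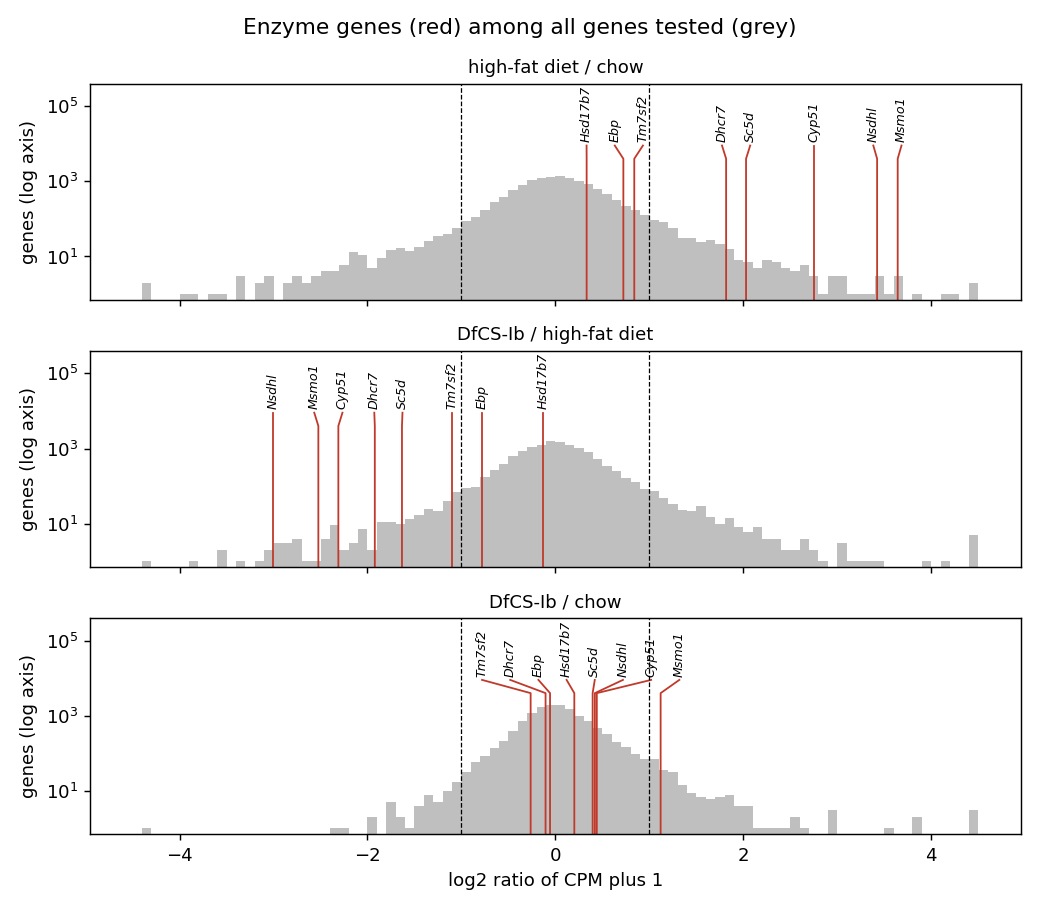
Number of genes (log axis) by log2 ratio of CPM plus 1 for all 13153 genes tested, in grey, with the 8 genes as red lines and dashed lines at 2-fold; genes beyond the axis are placed in the end bins. In the upper panel 5 of the 8 lie right of the 2-fold line, in the middle panel 6 lie left of it, and in the lower panel only Msmo1 lies past a 2-fold line.

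Other genes listed beside these steps, not all of them enzymes of the pathway, were also higher in HFD than in chow, by less than the 5 steep members. Of 6 genes named for this list, 5 were found and Faxdc2 was not matched. Lbr, the lamin B receptor, carries the same reductase activity as Tm7sf2, and had 99, 193 and 99 counts or 2.38, 4.17 and 2.40 RPKM. Its ratio of HFD to chow was 1.63 (1.27 to 2.10), and its interval included the 1.80 of Tm7sf2. The Erg28 gene, listed as 0610007P14Rik, encodes a tether of the demethylating enzymes and had 309, 887 and 390 counts. It was 2.40-fold (2.11 to 2.74) above chow in the HFD library, between Hsd17b7 and the pair Msmo1 and Nsdhl, whose products it is known to hold together.

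Ebpl, a relative of Ebp, was 2.96-fold (2.58 to 3.40) above chow in the HFD library, and Tmem97, a membrane protein that shares a domain with Ebp, 2.31-fold (1.96 to 2.72). All 5 genes of this list were below the HFD library with DfCS-Ib, with a median log2 ratio of -0.87. None was lower by 2-fold on the log2 ratio of CPM plus 1, where 2.02% of all genes tested were. For HFD against chow 3 of the 5 were at least 2-fold higher, against 3.47% of all genes, and the median was 1.17. Lbr overlaps a gene model of the opposite strand, and since the strand setting of the counting is not known, reads of the overlap may belong to either.

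Electron donors of the oxidative steps differed in both directions. Por, the reductase that passes electrons to Cyp51 and other microsomal cytochromes, had 8110, 2284 and 9704 counts. It was 4.25-fold (4.05 to 4.45) lower in HFD than in chow, while Cyp51 was 6.89-fold higher. Cyb5b, a cytochrome b5, had 2065, 9115 and 2382 counts and was 3.69-fold (3.52 to 3.87) above chow in the HFD library.

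Cyb5r3, the reductase of cytochrome b5 that serves Msmo1 and Sc5d, had 1901, 5413 and 2169 counts and was 2.38-fold (2.26 to 2.51) above chow in the HFD library. With DfCS-Ib it was 2.08-fold below the HFD library, and Cyb5b 3.19-fold. The abundant form Cyb5a was 1.497-fold (1.45 to 1.54) above chow in the HFD library, and its ratio of DfCS-Ib to the HFD library was 1.01 (0.983 to 1.03). Cyb5r4 and Cyb5r1 had ratios of HFD to chow of 1.26 (1.01 to 1.58) and 0.933 (0.630 to 1.38), and Cyb5r2, with 1, 4 and 1 counts, was below the filter on low values. In all, the HFD library was 2-fold or more above chow for 2 of the 6 donors tested and 2-fold or more below it for 1. Of all genes tested, 3.47% were above and 2.27% below by that measure. Gene models on the opposite strand overlap Por and Cyb5a.

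All 11 genes of the steps from acetyl-CoA to lanosterol were at least 2-fold above chow in the HFD library, against 3.47% of all genes tested. All 11 were also at least 2-fold below the HFD library with DfCS-Ib, against 2.02%. Their median log2 ratios were 2.39 and -2.31, beside 1.92 and -1.78 for the 8 genes after lanosterol. Their highest log2 ratio of HFD to chow was 3.66, for the squalene epoxidase gene Sqle. Hsd17b7, Ebp and Tm7sf2 had lower ratios of HFD to chow than all 11, and the difference between the lists was not tested. Of 10 genes of SREBP control and cholesterol uptake, 5 were at least 2-fold above chow in the HFD library, against 3.47% of all genes. The lowest of that list was Mylip, a ubiquitin ligase of the LDL receptor, with a log2 ratio of -0.78.

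**Figure D5:**
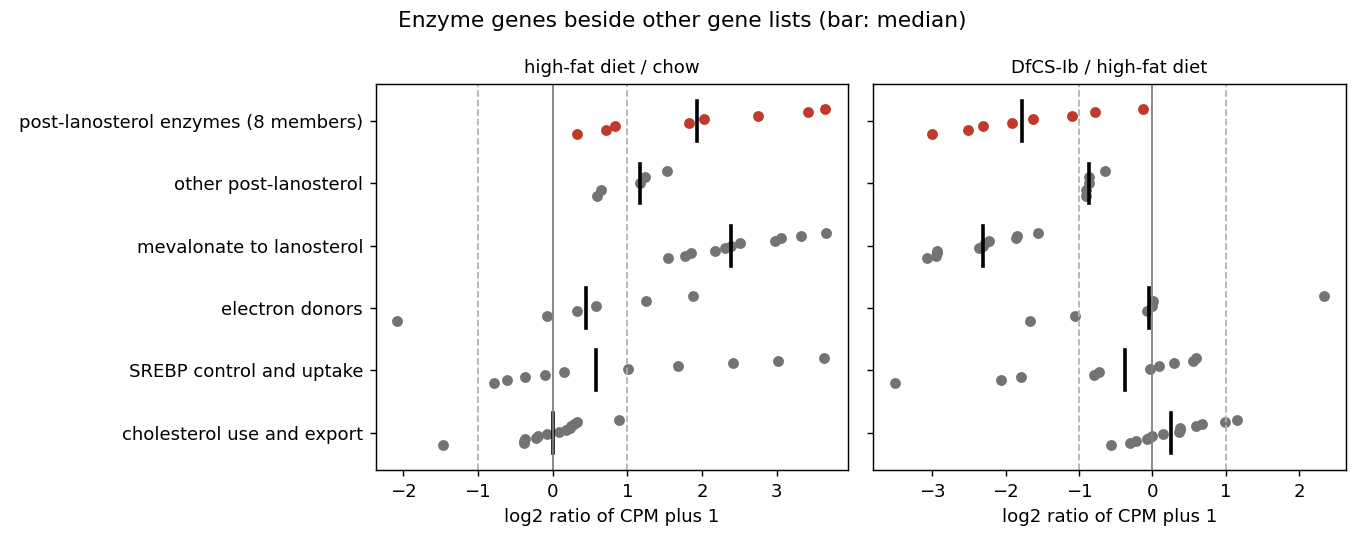
Log2 ratio of CPM plus 1, with 1 point per gene, a black bar at the median of each list, and dashed lines at 2-fold, for HFD against chow (left) and DfCS-Ib against the HFD library (right). The 8 members (red) spread from 0.33 to 3.64 on the left, and the highest point of the mevalonate list lies at 3.66.

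Genes outside the cholesterol lists were ranked by their distance from the members' median. The distance was taken in the plane of the log2 ratios of HFD to chow and of DfCS-Ib to the HFD library. It covered 3 libraries and 9527 genes averaging 5 CPM or more. Among the 5 nearest were Acss2, at a distance of 0.20 with 728, 2895 and 688 counts, Hectd2 at 0.23, Hsd3b2 at 0.26 and Pde4b at 0.29. Acss2 encodes the cytosolic acetyl-CoA synthetase, Hectd2 a ubiquitin ligase, Hsd3b2 a steroid dehydrogenase and Pde4b a cyclic AMP phosphodiesterase. Of the 8 members, only Sc5d and Dhcr7 lay near the same point, both at 0.18. The others lay from 0.98 for Cyp51 to 2.29 for Hsd17b7, so genes near the median are not near most members. Gene models on the opposite strand overlap Acss2, Hectd2 and Pde4b, and Hsd3b2 belongs to a family of close copies.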

How the data were processed

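Liver RNA was sequenced in 3 libraries, 1 per group. For each library the authors deposited raw read counts and RPKM per gene, per the file headers, with mm10 positions. Recomputing RPKM from count, length and file total gave the deposited value to within 0.000506% wherever a gene had 100 counts or more. TopHat2 and mm10 are named as aligner and genome build in the submitters' processing notes. How reads were counted, with what strand setting and from which annotation is not given in the sources used here. The stated start and end equal those of RefSeq GRCm38.p6 for 5 of the 8 genes.

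Counts were scaled with TMM factors of 0.976, 1.048 and 0.978 (chow, HFD, DfCS-Ib; edgeR 4.0.16 in R 4.3.3). Ratios of single genes are of scaled counts, with the exact interval of the binomial split (scipy 1.17.1). Counts of genes past 2-fold use the log2 ratio of CPM plus 1 over the 13153 genes averaging 1 CPM or more. The steps were tested on simulated counts that held set fold changes and counting error only. Variation between animals was not simulated. Genes named were the 8 members, all genes of the lists of other post-lanosterol genes and electron donors, the highest and lowest gene of each other list by the ratio of HFD to chow, and the 5 nearest genes. A few genes that this rule names are not reported here. The members and lists were chosen with earlier results of these data known.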

Additional observations from a re-analysis of the deposited data

How the results depend on the processing

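The ratios of the 8 genes were recomputed under 7 alternatives: no TMM factors, DESeq2 size factors (DESeq2 1.42.0), the deposited RPKM, pseudocounts of 0.25 and 5 CPM, no filter, and the 50 most abundant genes left out. All 168 ratios kept their sign, and 158 stayed within the counting interval of the main value. The filter does not enter the ratio of a member, so the ratios counted for that alternative could not change. The number of members at least 2-fold higher with DfCS-Ib than in chow, 1 (Msmo1), was 0 with a pseudocount of 5 CPM and 0 with a fold of 3.

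Without TMM factors the median of all genes for HFD against chow moved to 0.11, and the members' median to 2.02, or 1.91 above it, beside 1.90 in the main scaling. Of genes at least 2-fold apart between DfCS-Ib and the HFD library, 54.9% were higher with DfCS-Ib, but 43.4% without TMM factors and 44.7% with RPKM. A pseudocount of 5 CPM lowered the genes at least 2-fold higher and lower from 457 and 298 to 230 and 164 (HFD, chow), from 324 and 266 to 166 and 128 (DfCS-Ib, HFD), and from 213 and 57 to 82 and 21 (DfCS-Ib, chow). For the last comparison 0.25 CPM gave 355 and 152, and 287 and 114 were found without the 50 most abundant genes. No paired analysis was possible because each group had 1 library. Counts of 73 for Nsdhl in chow and 101 with DfCS-Ib give the widest intervals of the 8 genes.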

Other observations

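Genes of cholesterol use and export mostly differed by less than 2-fold between HFD and chow. Of 15 named genes, 14 were tested. HFD was 2-fold or more above chow for 0 of them and 2-fold or more below it for 1, with a median log2 ratio of 0.01. The shares of all genes tested were 3.47% above and 2.27% below. The gene of the list below chow by 2-fold was Cyp7a1, whose product commits cholesterol to bile acids. It had 1196 counts in chow, 510 with the HFD and 853 with DfCS-Ib. Soat2, which esterifies cholesterol, had the highest log2 ratio of the list, 0.89, with 224, 508 and 281 counts. Cyp7b1, an oxysterol hydroxylase chosen after its values were seen, had 2877, 3280 and 6084 counts. It was 2.23-fold (2.13 to 2.32) higher with DfCS-Ib than in the HFD library. By the same ratio of scaled counts Cyp7a1 was 2.01-fold (1.80 to 2.24) higher. On the log2 ratio of CPM plus 1 only Cyp7b1 of this list reached 2-fold, at 1.15, beside 0.99 for Cyp7a1. That is 1 of the 14 genes tested, against 2.46% of all genes, and the median of the list for this comparison was 0.26.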
